A study of Homo sapiens with 32 samples.

Results

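The genes described here are 9 genes of MHC class I and its peptide loading, picked by name from a count table of 60332 genes: HLA-B, HLA-C, HLA-E, HLA-F, B2M, TAP1, TAP2, TAPBP and NLRC5. Each had 1 row in the table, and all 9 passed the filter on low counts in every fit. They were followed through all 16 groups of irradiated or untreated human cells, with 2 libraries of polyadenylated RNA in each group.

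MHC class I molecules carry peptides from inside the cell to its surface, where CD8 T cells read them. HLA-B and HLA-C encode classical heavy chains, HLA-E and HLA-F encode non-classical ones that are also read by receptors of natural killer cells, and B2M encodes the light chain they share. TAP1 and TAP2 form the transporter that brings peptides into the endoplasmic reticulum, tapasin (TAPBP) holds empty class I molecules at that transporter, and NLRC5 is a transcriptional activator of class I genes. Interferons are known to raise these genes in epithelial cells, and cGAS and STING, a sensor of cytosolic DNA and its adaptor, are known to start interferon production.

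MCF10A is a breast epithelial line that is not transformed, and hTERT RPE-1 is an immortalised line of the retinal pigment epithelium. The dose was 10 Gy in every irradiated group. The first of 3 parts held irradiated MCF10A cells collected at 5 days that were wild type (WT) with a CDK1 inhibitor (CDK1i), cGAS knockout (KO), STING KO or XRCC4 KO, beside WT cells that were untreated or irradiated with DMSO for 3 or 5 days. The second held MCF10A cells 3 days after irradiation: a double knockout of XRCC4 and p53 (DKO) with and without an ATR inhibitor (ATRi), XRCC4 KO with and without ATRi, p53 KO, and WT. The third held RPE-1 cells 3 days after irradiation, all with ATRi: p53 KO, cells labelled WT cGAS, and WT. XRCC4 acts in DNA end joining, p53 and ATR in DNA damage checkpoints, and CDK1 drives entry into mitosis. Knockout lines were CRISPR-Cas9 clones grown from single cells, with no clone named, so each knockout comparison sets line against line and other differences between lines cannot be told apart from the lost gene. No knockout cells were measured without irradiation. DMSO is given in the labels for irradiated WT cells of the first part and for no other group.

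Promoter sequences are shown first. Class I promoters are known to carry interferon response elements, NF-kappa B sites and the box elements bound by the complex that NLRC5 joins. The stretches come from RefSeq on GRCh38.p14, which had entries for 7 of the 9 genes (HLA-B, HLA-C, HLA-F, B2M, TAP1, TAP2 and TAPBP). Each lies within the 250 bases before the annotated start, reads 5′ to 3′ on the strand of the gene, and has in capitals every match of the motifs named after the sequences.
HLA-B (chr6:31357221-31357366, minus strand): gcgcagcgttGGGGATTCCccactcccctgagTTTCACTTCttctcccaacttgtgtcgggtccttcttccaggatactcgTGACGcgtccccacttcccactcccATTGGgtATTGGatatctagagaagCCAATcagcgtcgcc
HLA-C (chr6:31272134-31272294, minus strand): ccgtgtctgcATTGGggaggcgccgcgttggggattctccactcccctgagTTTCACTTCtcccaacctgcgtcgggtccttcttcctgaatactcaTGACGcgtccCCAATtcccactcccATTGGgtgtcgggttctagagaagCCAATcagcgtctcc
HLA-F (chr6:29723269-29723391, plus strand): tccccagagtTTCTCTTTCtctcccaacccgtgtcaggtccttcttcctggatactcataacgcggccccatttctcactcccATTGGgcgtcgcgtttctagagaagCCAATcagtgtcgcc
B2M (chr15:44711363-44711482, plus strand): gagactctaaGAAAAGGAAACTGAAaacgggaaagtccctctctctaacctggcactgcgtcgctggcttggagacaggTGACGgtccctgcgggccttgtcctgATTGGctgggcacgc
TAP1 (chr6:32853813-32853954, minus strand): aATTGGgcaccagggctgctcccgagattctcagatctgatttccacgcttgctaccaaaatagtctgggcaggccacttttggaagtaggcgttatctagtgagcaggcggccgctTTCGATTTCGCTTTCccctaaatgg
TAP2 (chr6:32838760-32838812, minus strand): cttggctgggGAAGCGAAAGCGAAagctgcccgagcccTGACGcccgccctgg
TAPBP (chr6:33314079-33314143, minus strand): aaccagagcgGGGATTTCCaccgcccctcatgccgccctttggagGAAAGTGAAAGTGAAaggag

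Motifs were searched on both strands of the 250 bases. The core of the interferon-stimulated response element, GAAANNGAA, was found before HLA-F, B2M, TAP1, TAP2 and TAPBP, and in 6.88% of the 35116 promoters in the table. With the repeats in the other order, GAANNGAAA, a search added after the sequences were seen, it was found before HLA-B, HLA-C and TAP2, and in 6.56% of all promoters. One of these forms was thus present before all 7 genes, and in TAP2 the matches overlap. Because the second form was added after these sequences were seen, the count of 7 is not a test. The share of all promoters with either form was not counted. A kappa B motif, GGGNNTTCC, was found before HLA-B and TAPBP (5.78% of all promoters). The X2 box core, TGACG, was found before HLA-B, HLA-C, B2M and TAP2 (21.2%), and the Y box core, ATTGG, before HLA-B, HLA-C, HLA-F, B2M and TAP1 (32%). The gamma-activated sequence TTCNNNGAA was found only at a second annotated start of TAP1 (6.57%). These matches describe letters and not bound sites, and whether they bear on the changes below was not tested.

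Total counts ran from 5590061 to 18585999 per library. Of the MCF10A epithelial markers 8 of 8 reached 1 CPM (counts scaled to library size) in MCF10A, with a summed level of 5669.6 to 27069.7 CPM there and 8.20 to 31.3 CPM in RPE-1. The RPE-1 markers summed to 4361 to 9108 CPM in RPE-1 and 172 to 1092 CPM in MCF10A. Most of this was VIM, with 4058.7 to 8691.5 CPM in RPE-1 and 146.1 to 1068.7 CPM in MCF10A. CDH2, TERT, PAX6 and OTX2 were higher in every RPE-1 library than in any MCF10A library, and the MITF ranges overlapped. BEST1 reached 9.94 CPM in MCF10A and 2.22 CPM in RPE-1. RPE65, a defining gene of mature retinal pigment epithelium, reached at most 0.0506 CPM in RPE-1. Of 10 immune and blood cell markers 3 reached 1 CPM in MCF10A, CD14 the highest with up to 80.7 CPM, and MS4A1 and NKG7 were at 0 there. MB21D1, which encodes cGAS, had 20 and 15 counts in cGAS KO and 251 and 254 in irradiated WT at 5 days, and for TMEM173, the gene of STING, the STING KO libraries held 127 and 103 counts against 1214 and 894 in that WT. XRCC4 had 88 and 66 counts in XRCC4 KO and 140 and 125 in WT at 5 days, so its transcript level does not check that label. In RPE-1, MB21D1 had 8 and 6 counts in p53 KO, 6199 and 6158 in WT cGAS, and 2 and 100 in WT, where the libraries differ. Whether the pair of libraries in a group came from different cultures is not stated, so the p-values below rest on a spread between libraries that may be technical. The common coefficient of variation between libraries estimated by edgeR was 0.187 in the first part, 0.036 in the second and 0.0345 in the third. Counts of called genes, SEs and p-values are therefore not comparable between the first part and the others.

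HLA-B and HLA-C share 1 deposited interval on chromosome 6 (hg19, 31236526 to 31325414), so the interval is wider than either gene. HLA-F (29690552 to 29716826), HLA-E (30457244 to 30461982), TAP2 (32780540 to 32806599), TAP1 (32808494 to 32827362, an interval shared with PSMB8 and PSMB9) and TAPBP (33267471 to 33282164) lie on the same chromosome. B2M lies on chromosome 15 (45003675 to 45011075) and NLRC5 on chromosome 16 (57023397 to 57117443). The TAP2 values were not whole numbers in the table, where the other 8 genes had whole counts. The heavy chain genes are close copies of each other and are highly variable between people, and the counts were made against reference alleles. Runs of 50 bases in the longest reference transcripts of HLA-B, HLA-C, HLA-E and HLA-F were compared for each pair of genes. Of the runs of one gene, between 0.0392% (HLA-E in HLA-B) and 2.0% (HLA-B in HLA-C) occur in the other. The share of a gene's runs found in any of the other genes was not counted and can be higher than its pair values. Other class I genes and pseudogenes, such as HLA-H, were not compared. Reads from shared runs can be given to the wrong gene. Levels of single heavy chain genes are therefore uncertain by an amount that was not tested.

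Per length, on the authors' FPKM scale (fragments scaled to gene length and library size), B2M had the highest level of the 9, with a mean over groups of 1856 FPKM in MCF10A and 9188 FPKM in RPE-1. The RPE-1 means are weighted towards WT cGAS. B2M had 4864 FPKM in RPE-1 p53 KO, 19753 in WT cGAS and 2946 in WT, and HLA-B had 1498, 16270 and 1041 FPKM in that order. In these means HLA-B followed with 232 FPKM in MCF10A and 6269.8 FPKM in RPE-1, then HLA-C with 196 and 1765 FPKM in those lines. The order of HLA-B and HLA-C in MCF10A depends on the scale and the group. By counts HLA-B lay below HLA-C in every MCF10A library, with ratios from 0.105 to 0.933. In FPKM HLA-B had 265.9 and HLA-C 122.8 in untreated WT, but 35.2 and 115.7 in cGAS KO. HLA-E, TAP2, HLA-F, TAP1 and TAPBP averaged 93.3, 79.4, 51.5, 37.5 and 35.3 FPKM in MCF10A. NLRC5, a regulator and not a surface protein, had the lowest mean over groups of the 9, with 9.99 FPKM in MCF10A and 41.2 FPKM in RPE-1. HLA-F was lower than NLRC5 in RPE-1 WT (12.4 against 16.6 FPKM) and RPE-1 p53 KO (42.0 against 47.8 FPKM). In RPE-1 WT cGAS HLA-F had 466.5 FPKM. All levels below are CPM on 1 scale for all 32 libraries and are compared within a gene.

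Across the 16 groups every one of the 9 genes was highest in RPE-1 WT cGAS, and the lowest group differed between genes. HLA-B had the widest range, 326-fold between the means of the highest and lowest group, followed by NLRC5 with 45.9-fold, HLA-C with 28.5-fold and HLA-F with 27.5-fold. TAP2 had the narrowest, 3.30-fold. Apart from that of HLA-F, these ranges set RPE-1 WT cGAS against an MCF10A group, so their order need not hold within a line. Within MCF10A the group means ran from 22.1 to 431 CPM for HLA-B and from 2.84 to 66.8 CPM for NLRC5. Within RPE-1 they ran from 578 to 7197 CPM for HLA-B and from 9.29 to 255.5 CPM for HLA-F. HLA-B averaged 7197 CPM in RPE-1 WT cGAS, then 640.1 in RPE-1 p53 KO, 578 in RPE-1 WT, 431 in MCF10A WT at 5 days and 286 in the DKO with ATRi. Below these came p53 KO, WT at 3 days in the second part, untreated WT and WT at 3 days in the first part, between 156 and 182 CPM, whose neighbours in the order overlap. WT with CDK1i, the DKO and XRCC4 KO with ATRi had 61.9, 61.4 and 57.6 CPM and overlap in order. The lowest were XRCC4 KO at 3 days with 28.4 CPM and the XRCC4, cGAS and STING KO lines at 5 days with 23.8, 22.7 and 22.1 CPM, the last 3 overlapping in order. Between neighbours in this order of 16 groups the libraries overlapped in 9 of 15 pairs for HLA-B, 12 of 15 for HLA-F and 5 of 15 for NLRC5. The libraries of different parts are set side by side here only as levels.

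**Figure D1:**
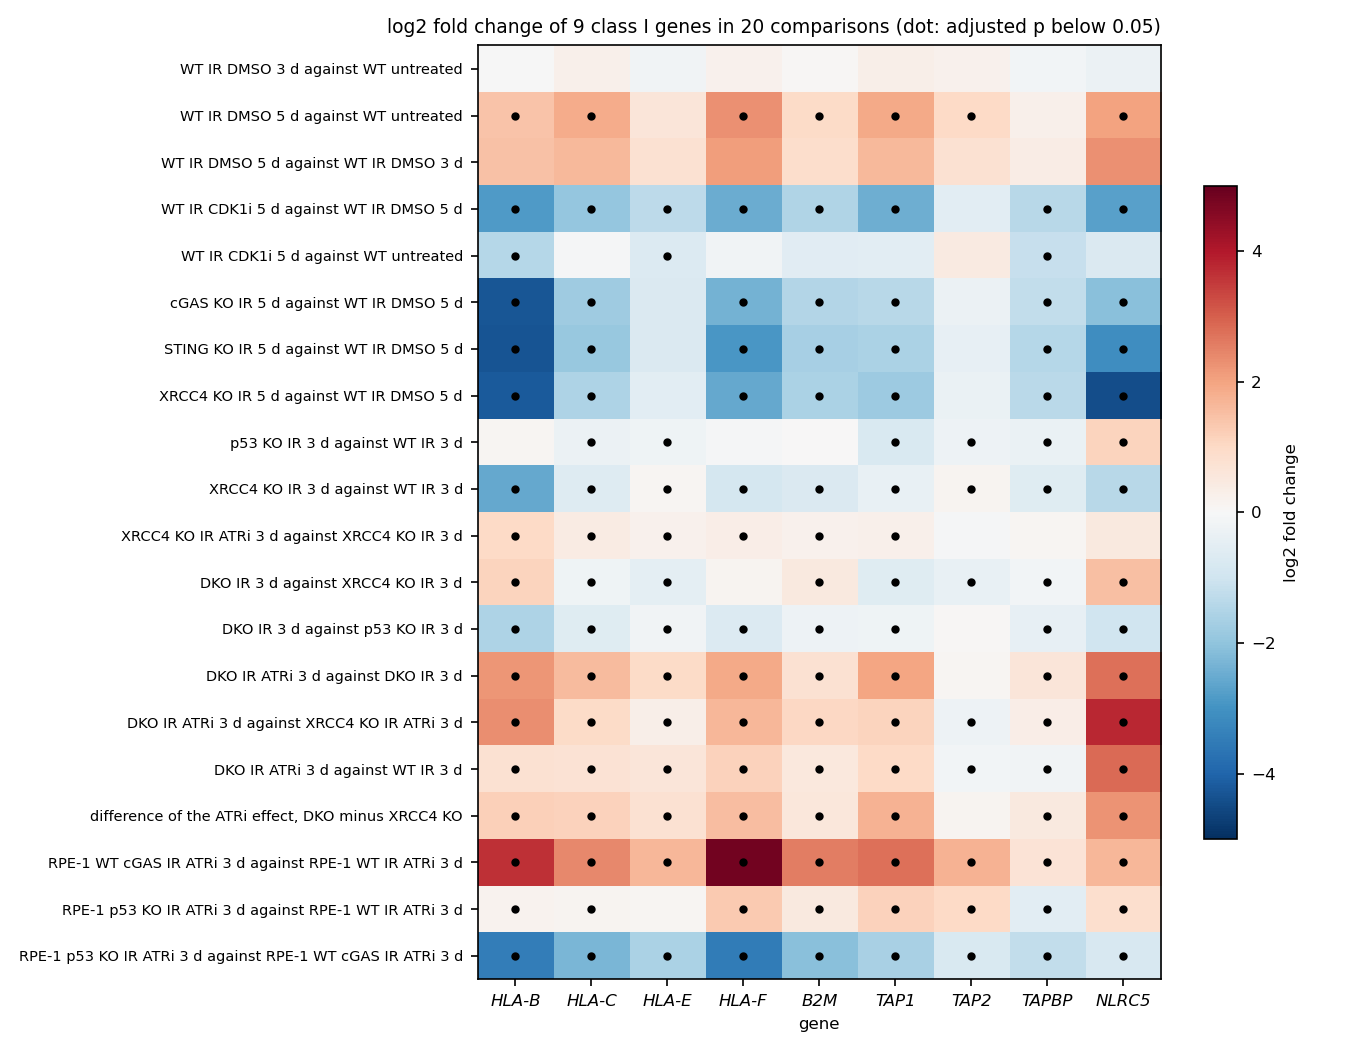
Log2 fold changes of the 9 genes (columns) in the 20 comparisons (rows), from edgeR. Colour runs from blue (lower in the first-named group) to red (higher), and a dot marks an adjusted p below 0.05. The row of WT at 3 days against untreated WT holds no dot, and the row of RPE-1 WT cGAS against RPE-1 WT holds 9.

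In irradiated WT MCF10A cells the class I genes were near their untreated level at 3 days and higher at 5 days. HLA-C had 145 and 206 CPM in untreated cells, 204 and 209 CPM at 3 days and 846 and 427 CPM at 5 days. HLA-B had 136 and 186 CPM untreated, 160.1 and 152 CPM at 3 days and 587 and 276 CPM at 5 days. NLRC5 had 14.4 and 16.2 CPM untreated, 12.6 and 11.9 CPM at 3 days and 88.6 and 33.1 CPM at 5 days. In these 3 genes both 5 day libraries lay above every untreated and 3 day library, and the 5 day libraries stood far apart from each other. In bulk RNA fewer cells expressing a gene and less RNA of it per cell cannot be told apart.

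Against untreated cells, 7 of the 9 genes rose at 5 days and none fell (edgeR quasi-likelihood test, Benjamini-Hochberg adjusted p below 0.05), where 15.1% of all genes tested were called higher and 14.2% lower. The median log2 fold change of the 9 was 1.42, against 0.00 for all genes. Among the heavy chains HLA-F rose by 2.30 ± 0.51 (log2 fold change ± SE, edgeR adjusted p = 0.0102), HLA-C by 1.86 ± 0.29 (adjusted p = 0.00217) and HLA-B by 1.42 ± 0.36 (adjusted p = 0.0171), while HLA-E stood at 0.60 ± 0.24 (adjusted p = 0.0789). The light chain B2M rose by 0.94 ± 0.30, to 1478 and 857 CPM at 5 days against 422 and 798 CPM untreated. Of the loading genes TAP1 rose by 1.91 ± 0.35 and TAP2 by 0.99 ± 0.21, and tapasin stood at 0.25 ± 0.20 (edgeR adjusted p = 0.384). NLRC5 rose by 2.00 ± 0.39 (edgeR adjusted p = 0.00579).

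The 5 day libraries differed in the same direction for all 9 genes: replicate 1 lay above replicate 2 in each, as for TAP1 with 339 and 140.3 CPM. The interferon-stimulated genes IFIT1 and ISG15 moved with them, with 1151 and 285 CPM and 573 and 155 CPM at 5 days against 0.828 and 0.612 CPM and 2.71 and 3.47 CPM untreated. The part of this difference between libraries in the result was not tested beyond leaving each one out. Without replicate 1 of the 5 day group 3 of the 9 genes were called, and without replicate 1 of the untreated group 4. Limma on the FPKM values called 4, and a fit of only the groups compared called 0.

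At 3 days 0 of the 9 genes were called against untreated cells by edgeR, with 0 at an unadjusted p below 0.05 and 0 by DESeq2, and 6.53% of all genes were called in either direction. The 9 log2 fold changes lay between -0.30 and 0.29 with a median of 0.06, against 0.00 for all genes, and the lowest adjusted p was 0.534. Of the calls over all genes 56.0% were higher, and 69.2% by limma on log2(FPKM + 0.1). Between 5 and 3 days none of the 9 was called by edgeR, where 0.263% of all genes were, although 8 had an unadjusted p below 0.05, DESeq2 called 7 and a fit of all 32 libraries 8. Of the calls over all genes 82.5% were higher, 70.8% with upper quartile factors and 68.7% by DESeq2. The groups did not overlap in 9 of 9 genes, but the share of all genes without overlap was not counted. The median log2 fold change was 1.46 against 0.00 for all genes, and the lowest edgeR adjusted p was 0.058, for NLRC5. Without replicate 2 of the 5 day group edgeR called 7 of 9 between these times.

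Other genes of the pathway were read from 5 lists. Their counts stand beside 15.1% of all genes called higher and 14.2% lower at 5 days against untreated cells. At 5 days against untreated cells 2 of 6 immunoproteasome and proteasome activator genes rose and 0 fell, namely PSMB8, an immunoproteasome subunit (0.96 ± 0.21, edgeR adjusted p = 0.00904), and PSME2, a subunit of the proteasome activator (0.86 ± 0.19). Of the loading chaperones and trimming enzymes 2 of 8 rose and 0 fell, with ERAP2, which trims peptides, at 0.93 ± 0.25 and the chaperone CALR at 0.89 ± 0.27. Of the class I transcription regulators 6 of 14 rose and 3 fell, with IRF9 (2.34 ± 0.35), which carries interferon signals to promoters, on the higher side and on the lower side RFXAP (-1.38 ± 0.23) and NFYB (-0.63 ± 0.19), parts of the complexes that bind the X and Y boxes. Of the interferon receptors and kinases 0 of 7 rose and 1 fell, IFNGR2 at -0.65 ± 0.09. Of the class I-like genes 1 of 4 tested rose and 0 fell, HFE at 0.94 ± 0.25. Between 5 and 3 days 2 of 14 regulators were called higher and 0 lower, where 0.263% of all genes were called in either direction. STAT2, which also carries interferon signals, was among them (1.85 ± 0.22). At 3 days against untreated cells NFYB alone of these lists was called, lower (-0.75 ± 0.19), where 6.53% of all genes were called in either direction.

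**Figure D2:**
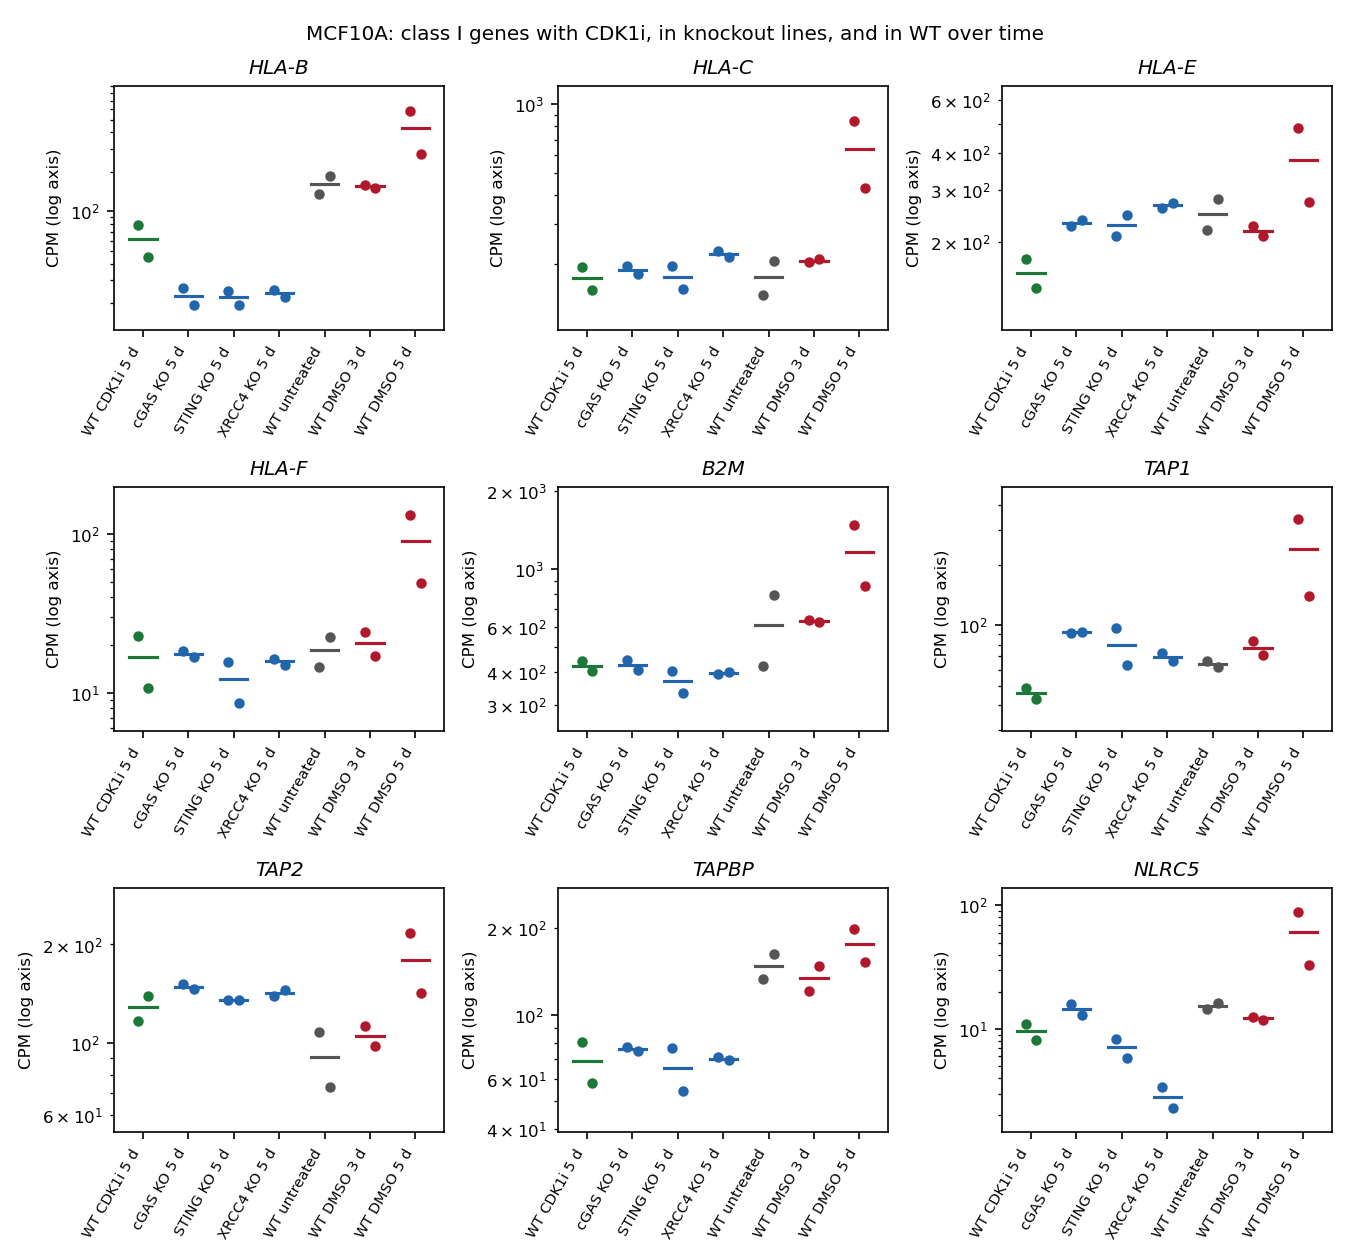
Level of each of the 9 genes in the first part (CPM, log axis), with a point for each of 2 libraries per group and a line at their mean. WT with CDK1i and the 3 knockout lines are on the left and WT over time on the right; HLA-C lay between 153 and 228 CPM in the 4 groups on the left and at 846 and 427 CPM in WT at 5 days.

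With the CDK1 inhibitor the class I genes stayed low at 5 days. HLA-B had 79.1 and 44.8 CPM with CDK1i and 587 and 276 CPM with DMSO. TAP1 had 48.9 and 42.8 CPM with CDK1i against 339 and 140.3 CPM with DMSO, and NLRC5 had 11 and 8.13 CPM with CDK1i against 88.6 and 33.1 CPM with DMSO. In all 9 genes both CDK1i libraries lay below both DMSO libraries, but the share of all genes in this order was not counted. Of the 9 genes 8 fell and none rose, where 7.37% of all genes were called lower and 4.72% higher, and the median log2 fold change was -1.92 for the 9 and -0.04 for all genes. HLA-B was at -2.85 ± 0.38 (edgeR adjusted p = 0.00436), NLRC5 at -2.71 ± 0.40, HLA-F at -2.47 ± 0.51, TAP1 at -2.43 ± 0.35 and HLA-C at -1.92 ± 0.29. B2M (-1.51 ± 0.30), TAPBP (-1.40 ± 0.21) and HLA-E (-1.31 ± 0.24) fell less in these estimates, and TAP2 stood at -0.53 ± 0.20 (edgeR adjusted p = 0.111). Without replicate 2 of the CDK1i group 3 of the 9 were called. A fit of only the groups compared called 0. Of the calls over all genes 39.1% were higher, 50.6% by DESeq2 and 20.0% and 21.2% by limma on log2(FPKM + 0.1) and log2(FPKM + 1).

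The immunoproteasome subunit PSMB9 was at 0.557 ± 0.230 CPM with CDK1i and 10.5 ± 6.74 CPM with DMSO (-4.27 ± 0.60), and 4 of 6 genes of its list fell and 0 rose. Of the loading chaperones and trimming enzymes 3 of 8 fell and 0 rose, among them TAPBPL, a tapasin-related editor of peptides (-1.57 ± 0.35). Of the transcription regulators 5 of 14 fell and 0 rose, led by IRF9 (-2.66 ± 0.35). Of the interferon receptors and kinases 4 of 7 fell and 0 rose, and of the class I-like genes 2 of 4 fell and 0 rose. Of all genes 7.37% were called lower and 4.72% higher.

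Set against untreated cells, irradiated cells with CDK1i had 3 of the 9 genes lower and none higher, where 15.3% of all genes were lower and 13.5% higher. These were HLA-B (-1.42 ± 0.36), tapasin (-1.15 ± 0.21) and HLA-E (-0.70 ± 0.24, edgeR adjusted p = 0.0477). HLA-C stood at -0.06 ± 0.28 and B2M at -0.57 ± 0.30. The median of the 9 was -0.57, against -0.02 for all genes. Without replicate 2 of the untreated group 1 of the 9 was called, and without replicate 2 of the CDK1i group also 1. Limma on the FPKM values and a fit without the low-count filter also called 1, a fit of only the groups compared called 0, and 36.1% of the calls over all genes were higher by limma on log2(FPKM + 1), in place of 46.9%.

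In the cGAS, STING and XRCC4 knockout lines 7 of the 9 class I genes were lower at 5 days than in irradiated WT cells, and HLA-B was the lowest of the heavy chains relative to WT. HLA-B had 26.2 and 19.2 CPM in cGAS KO, 24.6 and 19.5 CPM in STING KO and 25.1 and 22.4 CPM in XRCC4 KO, against 587 and 276 CPM in WT. HLA-C had 196 and 180.2 CPM in cGAS KO, 195 and 156 CPM in STING KO and 228 and 214 CPM in XRCC4 KO, against 846 and 427 CPM in WT. NLRC5 had 15.8 and 13 CPM in cGAS KO, 8.35 and 5.88 CPM in STING KO and 3.38 and 2.29 CPM in XRCC4 KO, against 88.6 and 33.1 CPM in WT. For each of these genes every knockout library lay below both WT libraries, and for NLRC5 the XRCC4 KO libraries were the lowest of all.

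In cGAS KO, 7 of the 9 genes fell and none rose, where 6.88% of all genes were lower and 6.66% higher. In STING KO it was 7 and none, with 7.73% and 7.43% of all genes, and in XRCC4 KO 7 and none, with 12.4% and 12.4%. The median log2 fold changes of the 9 were -1.47, -1.67 and -1.57, against -0.02, -0.01 and -0.03 for all genes. The 3 comparisons share the WT libraries. HLA-B was at -4.26 ± 0.41 in cGAS KO (edgeR adjusted p = 0.000523), -4.30 ± 0.41 in STING KO and -4.20 ± 0.41 in XRCC4 KO, or 19.1-fold, 19.7-fold and 18.4-fold lower. HLA-F was at -2.38 ± 0.51, -2.91 ± 0.53 and -2.54 ± 0.52 in the same order of lines, and HLA-C at -1.77 ± 0.29, -1.88 ± 0.29 and -1.55 ± 0.29. B2M was at -1.47 ± 0.30, -1.67 ± 0.30 and -1.57 ± 0.30. Of the loading genes TAP1 was at -1.39 ± 0.34, -1.60 ± 0.34 and -1.81 ± 0.35 and tapasin at -1.23 ± 0.21, -1.44 ± 0.21 and -1.34 ± 0.21. NLRC5 was at -2.08 ± 0.39, -3.10 ± 0.42 and -4.43 ± 0.48. HLA-E and TAP2 were called in none of the 3 lines by edgeR, with log2 fold changes between -0.74 and -0.29.

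The cGAS KO count rested on few libraries: without replicate 1 or without replicate 2 of cGAS KO 1 of the 9 was called, and without replicate 1 of WT 4. In STING KO 4 were called without its replicate 2. A fit of only the groups compared called 3 in cGAS KO, 3 in STING KO and 4 in XRCC4 KO, and without the low-count filter 4 were called in cGAS KO. By limma on log2(FPKM + 0.1) and log2(FPKM + 1) the share of calls over all genes that were higher was 30.3% and 33.6% in cGAS KO, in place of 49.2%, 28.8% and 30.3% in STING KO, in place of 49.0%, and 18.6% and 21.3% in XRCC4 KO, in place of 50.1%. The median of all genes moved by -0.23 and -0.13 in XRCC4 KO on these scales. IFIT1 had 171 and 147 CPM in cGAS KO, 91.4 and 41.5 CPM in STING KO and 42.3 and 39.8 CPM in XRCC4 KO, against 1151 and 285 CPM in irradiated WT and 0.828 and 0.612 CPM in untreated WT.

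PSMB9 was at 0.984 ± 0.139 CPM in cGAS KO, 0.743 ± 0.667 CPM in STING KO and 0.139 ± 0.0551 CPM in XRCC4 KO, against 10.5 ± 6.74 CPM in WT. The immunoproteasome list had 5, 4 and 4 of 6 genes lower in the 3 lines and 0, 1 and 1 higher; the gene on the higher side was POMP, a proteasome assembly factor, at 0.55 ± 0.16 in STING KO and 0.59 ± 0.16 in XRCC4 KO. Loading chaperones and trimming enzymes had 4, 3 and 4 of 8 lower and 0, 0 and 0 higher, with TAPBPL at -1.76 ± 0.36, -1.73 ± 0.36 and -1.92 ± 0.37. ERAP1, which trims peptides, was at -1.58 ± 0.17 in cGAS KO and -1.24 ± 0.17 in STING KO. Transcription regulators had 4, 5 and 7 of 14 lower and 0, 0 and 1 higher, with STAT2 at -1.52 ± 0.21, -1.83 ± 0.22 and -1.56 ± 0.21. Interferon receptors and kinases had 3, 2 and 1 of 7 lower and 0, 0 and 0 higher, and no class I-like gene was called. Of all genes 6.88%, 7.73% and 12.4% were lower in these lines and 6.66%, 7.43% and 12.4% higher.

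Against untreated WT cells, a comparison added after the values were seen, the irradiated knockout lines had HLA-B and tapasin lower in all 3. HLA-B had 411 and 217 counts in cGAS KO, 303 and 216 in STING KO and 282 and 225 in XRCC4 KO, against 1803 and 1826 in untreated WT. Its log2 fold changes were -2.83 ± 0.39, -2.88 ± 0.39 and -2.78 ± 0.39 (edgeR adjusted p = 0.000695, 0.000596 and 0.000464). Tapasin was at 77.0 and 74.6 CPM in cGAS KO, 76.7 and 54.2 CPM in STING KO and 71.1 and 69.4 CPM in XRCC4 KO, against 134 and 163 CPM in untreated WT, with log2 fold changes of -0.98 ± 0.21, -1.19 ± 0.21 and -1.09 ± 0.21. HLA-C stood at 0.09 ± 0.28, -0.02 ± 0.28 and 0.31 ± 0.28 and was not called. NLRC5 was called in XRCC4 KO only (-2.43 ± 0.49), where cGAS KO stood at -0.09 ± 0.40 and STING KO at -1.11 ± 0.43; the difference between lines was not tested. TAP2 was higher in cGAS KO (0.71 ± 0.21) and XRCC4 KO (0.64 ± 0.21). In all, cGAS KO had 1 gene higher and 2 lower (18.8% and 19% of all genes), STING KO none and 2 (19.5% and 19.3%) and XRCC4 KO 1 and 3 (22.8% and 23.5%). The median log2 fold changes of the 9 were -0.09, -0.61 and -0.25, against -0.02, -0.02 and -0.04 for all genes. The 3 comparisons share the untreated libraries, and without replicate 1 of these 4 genes were called in STING KO, where DESeq2 and a fit of all 32 libraries called 5 each. By limma on log2(FPKM + 0.1) and log2(FPKM + 1) the share of calls over all genes that were higher was 38.3% and 35.0% in cGAS KO, in place of 49.8%, 37.1% and 34.6% in STING KO, in place of 50.2%, and 26.6% and 26.2% in XRCC4 KO, in place of 49.2%, where the median of all genes moved by -0.23 and -0.13.

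HLA-B and HLA-C were also compared with each other in each library; a difference between the genes was not tested. The ratio of HLA-B to HLA-C counts was 0.133 and 0.107 in cGAS KO, 0.126 and 0.126 in STING KO and 0.110 and 0.105 in XRCC4 KO. It was 0.407 and 0.292 in WT with CDK1i. In WT it was 0.933 and 0.904 untreated, 0.785 and 0.727 at 3 days and 0.693 and 0.646 at 5 days. In the second part it was 0.519 and 0.509 in the DKO with ATRi, 0.310 and 0.358 in the DKO, 0.196 and 0.205 in XRCC4 KO with ATRi, 0.138 and 0.131 in XRCC4 KO, 0.632 and 0.665 in p53 KO and 0.483 and 0.523 in WT. In RPE-1 it was 0.629 and 0.642 in p53 KO, 1.45 and 1.45 in WT cGAS and 0.595 and 0.622 in WT. The libraries of the XRCC4, cGAS and STING KO lines without ATRi were all at or below 0.138 and all other libraries at or above 0.196. A share of reads placed on the wrong heavy chain gene can move this ratio, and that part was not tested.

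**Figure D3:**
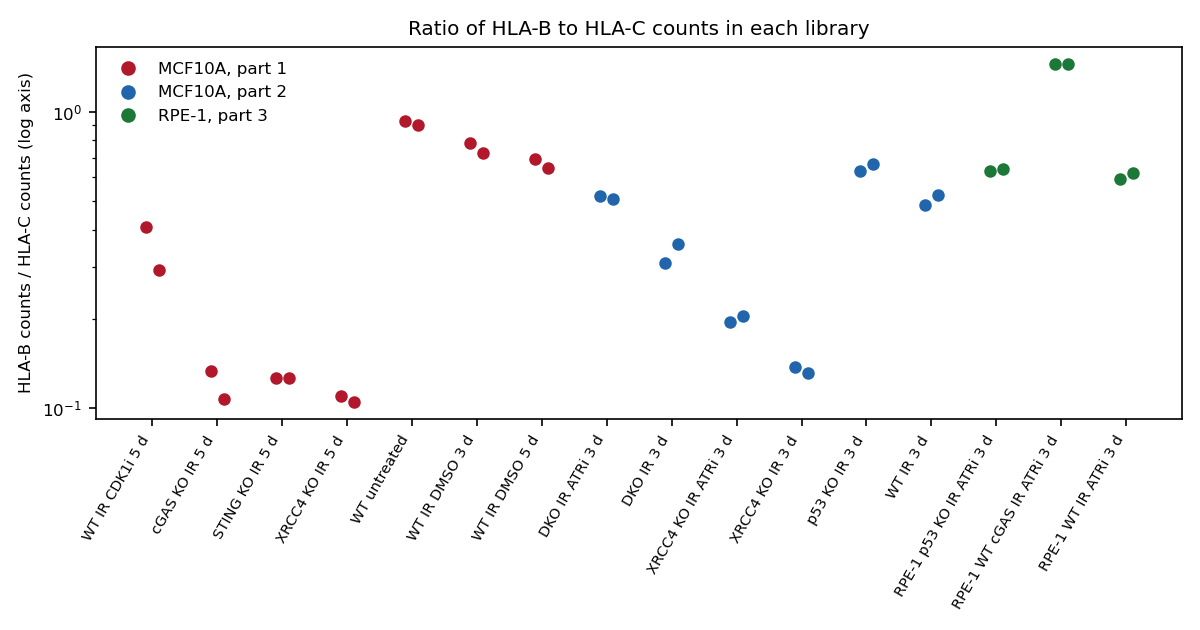
Ratio of HLA-B to HLA-C counts (log axis) in each of the 32 libraries, a point per library, coloured by part. XRCC4, cGAS and STING KO without ATRi lie between 0.105 and 0.138, untreated MCF10A WT at 0.933 and 0.904, and RPE-1 WT cGAS at 1.45.

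In the second part p53 KO and WT cells were close in the heavy chains at 3 days. HLA-B had 186 and 176 CPM in p53 KO and 162 and 177 CPM in WT, which overlap, and B2M had 821 and 904 CPM in p53 KO and 829 and 855 CPM in WT. NLRC5 had 20.9 and 19.5 CPM in p53 KO against 9.02 and 9.51 CPM in WT, and TAP1 had 81.8 and 77.7 CPM in p53 KO against 132 and 136 CPM in WT, with no overlap in either gene. NLRC5 rose by 1.10 ± 0.11 (edgeR adjusted p = 7.55e-09) and TAP1 was at -0.77 ± 0.05 (adjusted p = 1.82e-13). HLA-C, HLA-E, TAP2 and TAPBP also fell, by estimates between -0.34 and -0.20. In all 1 of 9 rose and 5 fell, where 25.7% of all genes were higher and 27.3% lower, and the median of the 9 was -0.20 against 0.01. The pathway genes called higher and lower were 1 and 4 of 8 loading and trimming genes, 2 and 0 of 6 immunoproteasome genes, 8 and 3 of 14 regulators, 0 and 4 of 7 interferon receptors and kinases and 1 and 2 of 4 class I-like genes. Limma on log2(FPKM + 1) called 3 of the 9 and a fit of all 32 libraries 2. On log2(FPKM + 0.1) the median of all genes moved by 0.12, and limma gave 66.2% of calls higher there and 66.1% on log2(FPKM + 1), in place of 48.5%.

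XRCC4 KO cells had HLA-B far below WT also at 3 days. HLA-B had 28.3 and 28.5 CPM in XRCC4 KO against 162 and 177 CPM in WT, which is -2.56 ± 0.08 on the log2 scale (edgeR adjusted p = 1.36e-16), or 5.91-fold lower. NLRC5 had 3.55 and 3.41 CPM in XRCC4 KO and 9.02 and 9.51 CPM in WT (-1.40 ± 0.17). HLA-F (-0.86 ± 0.08), B2M (-0.73 ± 0.05), HLA-C (-0.66 ± 0.05), TAPBP (-0.61 ± 0.05) and TAP1 (-0.39 ± 0.05) fell too. TAP2 (0.15 ± 0.05) and HLA-E (0.10 ± 0.04, edgeR adjusted p = 0.0488) were called higher, but both were lower on the FPKM scale. With 7 lower and 2 higher, the background was 27.5% of genes lower and 28.7% higher. The median log2 fold change of the 9 was -0.66, against -0.01 for all genes. PSMB9 was at -2.99 ± 0.22, and 4 of 6 genes of its list fell and 1 rose. Loading chaperones and trimming enzymes fell in 6 of 8 and rose in 0, among them TAPBPL (-1.43 ± 0.12) and ERAP1 (-0.88 ± 0.08), regulators fell in 6 of 14 and rose in 5, led by IRF9 (-1.42 ± 0.09) and IRF1 (-0.68 ± 0.08) on the lower side, and AZGP1 was at -2.01 ± 0.16 among class I-like genes, of which 3 of 4 fell and 1 rose. Interferon receptors and kinases fell in 5 of 7 and rose in 1. A fit of all 32 libraries called 5 of the 9. On log2(FPKM + 0.1) the median of all genes moved by -0.17, and limma gave 29.3% of calls higher there and 29.9% on log2(FPKM + 1), in place of 51.1%.

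The DKO without ATRi lay between its single knockouts for HLA-B. HLA-B had 55.6 and 67.1 CPM in the DKO, against 28.3 and 28.5 CPM in XRCC4 KO and 186 and 176 CPM in p53 KO. B2M had 692 and 708 CPM in the DKO, against 503 and 505 CPM in XRCC4 KO and 821 and 904 CPM in p53 KO. Relative to XRCC4 KO, NLRC5 (1.5 ± 0.17), HLA-B (1.10 ± 0.08) and B2M (0.47 ± 0.05) rose. TAP1 (-0.61 ± 0.05), HLA-E (-0.48 ± 0.04), TAP2 (-0.39 ± 0.05), HLA-C (-0.21 ± 0.05) and TAPBP (-0.15 ± 0.05) were called lower, of which HLA-C and TAPBP were higher on the FPKM scale. These 3 higher and 5 lower compare with 32.1% and 32.8% of all genes, and the medians were -0.15 for the 9 and 0.02 for all genes. Relative to p53 KO 8 of 9 fell and none rose (24.9% and 24.7% of all genes, with medians of -0.42 for the 9 and 0.00 for all), led by HLA-B (-1.54 ± 0.06) and NLRC5 (-1.01 ± 0.11), with TAP2 at 0.04 ± 0.05. Relative to XRCC4 KO the pathway genes higher and lower were 3 and 3 of 8 loading and trimming genes, 3 and 1 of 6 immunoproteasome genes, 6 and 4 of 14 regulators, 4 and 2 of 7 interferon receptors and kinases and 0 and 3 of 4 class I-like genes, with PSMB9 at 2.90 ± 0.22. Relative to p53 KO they were 1 and 6 of 8 loading and trimming genes, 1 and 5 of 6 immunoproteasome genes, 2 and 5 of 14 regulators, 1 and 4 of 7 interferon receptors and kinases and 1 and 2 of 4 class I-like genes. A fit of all 32 libraries called 3 of the 9 relative to XRCC4 KO and 4 relative to p53 KO. In the comparison with XRCC4 KO the median of all genes moved by 0.27 and 0.14 on log2(FPKM + 0.1) and log2(FPKM + 1), where limma gave 72.7% and 72.1% of calls higher, in place of 49.4%.

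With ATRi the class I genes of the DKO were higher, in 8 of 9 genes. HLA-B had 293 and 278 CPM in the DKO with ATRi and 55.6 and 67.1 CPM in the DKO. HLA-C had 565 and 547 CPM with ATRi against 179.5 and 187 CPM without. TAP1 had 271 and 263 CPM with ATRi against 67.0 and 66.7 CPM without. NLRC5 had 65.0 and 68.6 CPM with ATRi against 11.1 and 8.64 CPM without. In all 9 genes the libraries with ATRi lay above those without, but the share of all genes in this order was not counted. The log2 fold changes were 2.75 ± 0.09 for NLRC5, 2.21 ± 0.06 for HLA-B, 1.99 ± 0.04 for TAP1, 1.88 ± 0.07 for HLA-F and 1.59 ± 0.04 for HLA-C (highest edgeR adjusted p of the 8 called genes 1.13e-10). HLA-E (0.97 ± 0.04), B2M (0.77 ± 0.04) and TAPBP (0.59 ± 0.05) rose as well, and TAP2 stood at 0.10 ± 0.05 (adjusted p = 0.0626). On the FPKM scale, where the median of all genes also moved up, TAP2 had 120.8 and 122.6 FPKM with ATRi against 87.8 and 84.9 FPKM without. In XRCC4 KO it had 79.4 and 90.6 FPKM with ATRi against 88.7 and 88.6 FPKM without. Of all genes 25.9% were called higher and 32.5% lower, and the median log2 fold change was 1.59 for the 9 and -0.03 for all genes.

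In XRCC4 KO cells 6 of the 9 genes rose with ATRi and none fell, where 6.49% of all genes were called higher and 10.7% lower. HLA-B had 57.3 and 57.8 CPM in XRCC4 KO with ATRi and 28.3 and 28.5 CPM without (1.00 ± 0.09, edgeR adjusted p = 3.79e-08). HLA-C (0.42 ± 0.05), HLA-F (0.34 ± 0.09), TAP1 (0.25 ± 0.05), B2M (0.21 ± 0.05) and HLA-E (0.21 ± 0.04) rose. NLRC5 stood at 0.49 ± 0.20 (adjusted p = 0.104) from 4.15 and 5.77 CPM with ATRi and 3.55 and 3.41 CPM without. The median was 0.25 for the 9 and 0.00 for all genes. A fit of all 32 libraries called 0 of the 9.

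The difference between the ATRi effects was tested as an interaction, DKO minus XRCC4 KO. It was called above 0 for 8 of the 9 genes, where 13.1% of all genes were called higher and 21% lower, and the medians were 1.17 for the 9 and -0.05 for all genes. NLRC5 differed by 2.26 ± 0.24 on the log2 scale (edgeR adjusted p = 3.97e-08), TAP1 by 1.74 ± 0.06 (adjusted p = 1.3e-16), HLA-F by 1.54 ± 0.11 and HLA-B by 1.21 ± 0.11. HLA-C differed by 1.17 ± 0.06, HLA-E by 0.76 ± 0.06, B2M by 0.55 ± 0.06 and TAPBP by 0.48 ± 0.07, and TAP2 stood at 0.14 ± 0.06 (adjusted p = 0.0931). A fit of all 32 libraries called 4 of the 9 and upper quartile factors 9. With those factors and on log2(FPKM + 0.1) and log2(FPKM + 1) the median of all genes moved by 0.11, 0.20 and 0.16 in this difference, and 55.5%, 67.2% and 70.2% of all calls were higher, in place of 38.4%. In the DKO with against without ATRi the same 3 scales moved that median by 0.12, 0.21 and 0.15, with 58.3%, 67.4% and 69.4% of calls higher, in place of 44.3%.

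**Figure D4:**
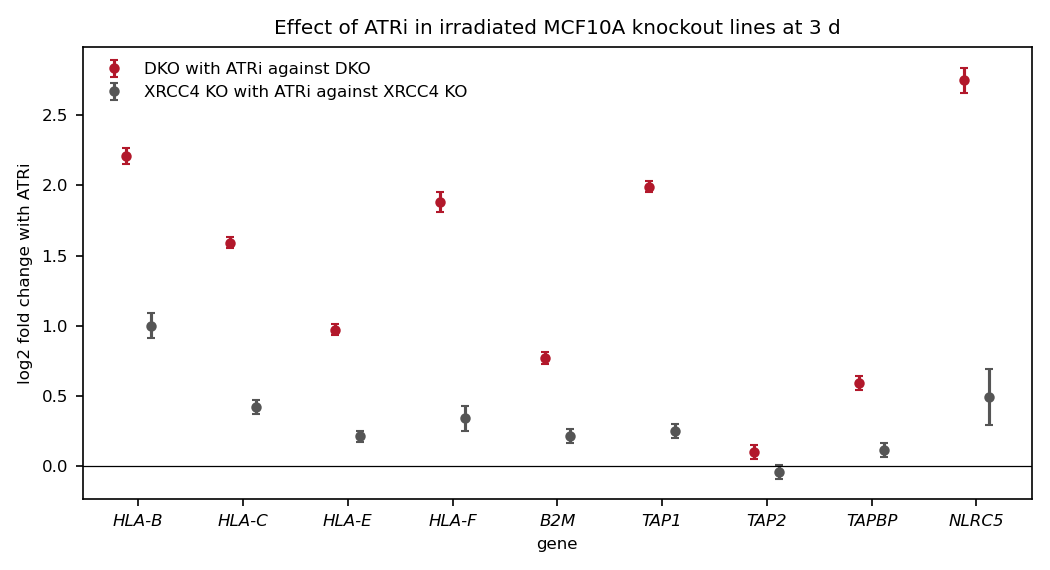
Log2 fold change with ATRi (vertical axis) of each of the 9 genes in the DKO (red) and in XRCC4 KO (grey), with bars of 1 SE from edgeR. The DKO points lie above the XRCC4 KO points in all 9 genes, with TAP2 near 0 in both lines in these fits of counts.

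The pathway lists were counted for the same comparisons, beside 25.9% of all genes higher and 32.5% lower in the DKO with ATRi and 6.49% and 10.7% in XRCC4 KO with ATRi. In the DKO with ATRi 5 of 6 immunoproteasome genes rose and 1 fell, with PSMB9 at 1.55 ± 0.10 and PSMB8 at 0.88 ± 0.05 on the higher side and POMP at -0.25 ± 0.04 on the lower. Of the loading chaperones and trimming enzymes 6 of 8 rose and 1 fell, among them ERAP2 (0.63 ± 0.12) and HSPA5, a chaperone of the endoplasmic reticulum (0.52 ± 0.03). Of the regulators 6 of 14 rose and 2 fell, with IRF9 at 119 ± 4.86 CPM with ATRi and 24.4 ± 2.21 CPM without (2.28 ± 0.07). The interferon receptors IFNGR1 (-0.58 ± 0.05) and IFNGR2 (-0.45 ± 0.04) fell, and of that list 2 of 7 rose and 3 fell. Of class I-like genes 2 of 4 rose and 1 fell, PROCR at -0.90 ± 0.05. In XRCC4 KO with ATRi the genes higher and lower were 1 and 0 of 8 loading and trimming genes, 2 and 0 of 6 immunoproteasome genes, 2 and 2 of 14 regulators, 0 and 0 of 7 interferon receptors and kinases and 1 and 1 of 4 class I-like genes, with IRF9 at 1.06 ± 0.10. The difference of the ATRi effects was called above 0 for STAT2 (1.97 ± 0.08), PSMB9 (1.56 ± 0.39) and PSMB8 (0.87 ± 0.09), by edgeR. IFIT1 had 554 and 567 CPM in the DKO with ATRi, 7.50 and 7.06 CPM in the DKO, 12.2 and 20.1 CPM in XRCC4 KO with ATRi and 2.09 and 3.00 CPM in XRCC4 KO.

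The DKO with ATRi also exceeded XRCC4 KO with ATRi in 8 of the 9 genes. NLRC5 had 65.0 and 68.6 CPM in the DKO with ATRi against 4.15 and 5.77 CPM in XRCC4 KO with ATRi, a log2 fold change of 3.76 ± 0.10, HLA-B was at 2.31 ± 0.06 and HLA-F at 1.67 ± 0.07. TAP2 was called lower (-0.24 ± 0.05) but was higher on the FPKM scale. Of all genes 35.6% were higher and 36.2% lower, and the medians were 1.02 for the 9 and 0.02 for all genes. Against irradiated WT cells of the second part, which had no ATRi, the DKO with ATRi had 7 genes higher and 2 lower, where 35.3% and 34.9% of all genes were, with medians of 0.72 for the 9 and 0.02 for all genes. NLRC5 (2.85 ± 0.09), HLA-F (1.16 ± 0.06), TAP1 (0.99 ± 0.04), HLA-B (0.75 ± 0.06) and HLA-C (0.72 ± 0.04) led, and TAPBP (-0.17 ± 0.05) and TAP2 (-0.13 ± 0.05) were called lower but were above WT on the FPKM scale. HLA-B thus had 293 and 278 CPM in the DKO with ATRi against 162 and 177 CPM in WT. Against XRCC4 KO with ATRi, upper quartile factors, log2(FPKM + 0.1) and log2(FPKM + 1) moved the median of all genes by 0.19, 0.48 and 0.28, with 62.2%, 79.7% and 80.0% of calls higher, in place of 49.6%. Against WT they moved it by 0.13, 0.30 and 0.18, with 70.2% and 70.9% of calls higher on the FPKM scales, in place of 50.3%.

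In irradiated RPE-1 cells with ATRi, WT cGAS cells had all 9 class I genes above WT. HLA-B had 6980.3 and 7413 CPM in WT cGAS against 568 and 588 CPM in WT, or 128961 and 133699 counts against 7971 and 9220. B2M had 6558 and 6779.8 CPM in WT cGAS against 1149.5 and 1141 CPM in WT, and HLA-F had 255 and 256 CPM in WT cGAS against 10.3 and 8.23 CPM in WT. The 9 genes took 2.164% and 2.245% of all counts in the WT cGAS libraries and 0.318% and 0.319% in the WT libraries. No gene of the 9 overlapped between these groups, but how many of all genes did not overlap was not counted. HLA-F rose by 4.81 ± 0.07 (28.0-fold), HLA-B by 3.66 ± 0.05 (12.6-fold), TAP1 by 2.77 ± 0.06, B2M by 2.56 ± 0.04 and HLA-C by 2.40 ± 0.04. TAP2 (1.74 ± 0.14), HLA-E (1.67 ± 0.05), NLRC5 (1.66 ± 0.07) and TAPBP (0.70 ± 0.04) rose by less in these estimates, and the highest edgeR adjusted p of the 9 was 0.000818, for TAP2. Of all genes 29.8% were called higher and 30.0% lower, and the median was 2.40 for the 9 and 0.02 for all genes. The count was 9 without either WT library, of which one had 2 counts and the other 100 counts of MB21D1. On log2(FPKM + 0.1) the median of all genes moved by 0.19, and limma gave 69.4% of calls higher there and 69.3% on log2(FPKM + 1), in place of 49.8%.

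**Figure D5:**
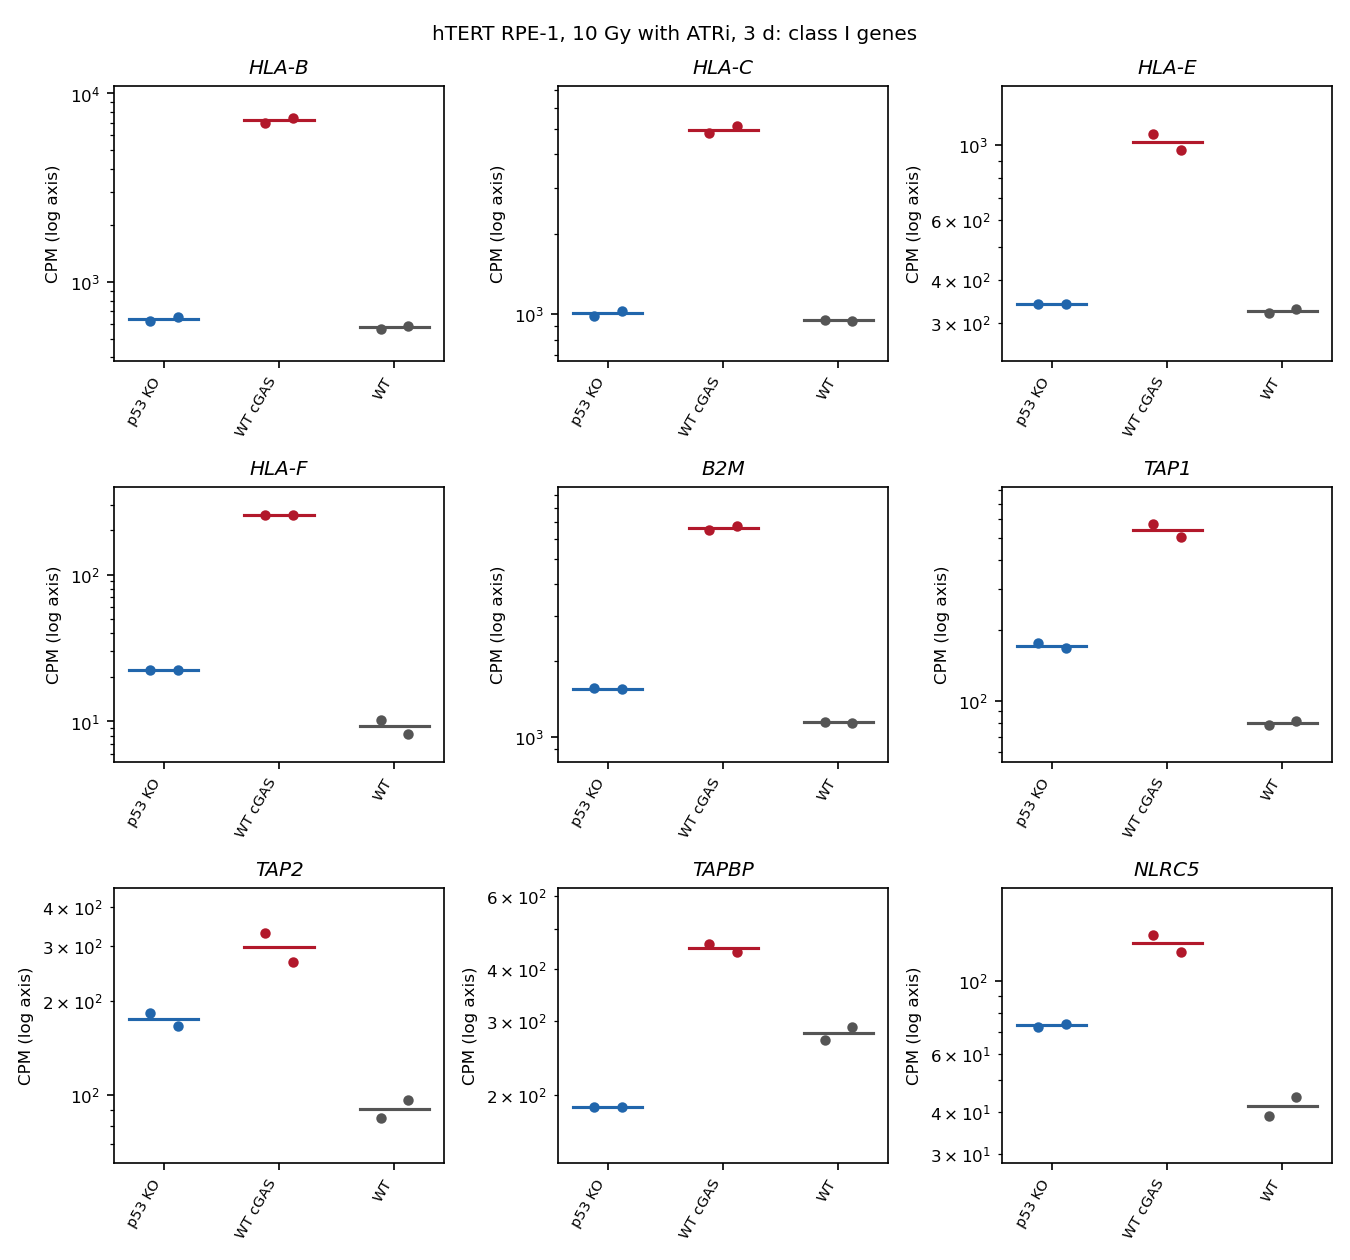
Level of each of the 9 genes in RPE-1 cells (CPM, log axis), with a point per library and a line at the mean of 2. WT cGAS is the highest group in all 9 panels; HLA-B lies at 623 and 658 CPM in p53 KO, 6980.3 and 7413 CPM in WT cGAS, and 568 and 588 CPM in WT.

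RPE-1 p53 KO cells differed from WT in another pattern. TAP1 had 176 and 168 CPM in p53 KO against 78.7 and 81.6 CPM in WT, and TAP2 had 183 and 167 CPM in p53 KO against 84.8 and 96.5 CPM in WT. Tapasin had 187 and 187 CPM in p53 KO against 270.4 and 291 CPM in WT. In each of these genes the groups did not overlap, with the transporter genes higher and tapasin lower in p53 KO. HLA-F rose by 1.32 ± 0.10, TAP1 by 1.14 ± 0.06, TAP2 by 0.99 ± 0.15 (edgeR adjusted p = 0.00511) and NLRC5 by 0.85 ± 0.07. B2M (0.48 ± 0.04), HLA-B (0.19 ± 0.04) and HLA-C (0.12 ± 0.04) rose by less in these estimates, HLA-E stood at 0.11 ± 0.05 (adjusted p = 0.0548) and tapasin was at -0.54 ± 0.04. In all 7 rose and 1 fell, where 34.2% of all genes were higher and 32.5% lower, with medians of 0.48 for the 9 and 0.03 for all genes. Against WT cGAS, p53 KO had 9 of 9 genes lower, where 32.8% of all genes were lower and 31.8% higher and the medians were -1.62 for the 9 and 0.00 for all, with HLA-F at -3.49 ± 0.06, HLA-B at -3.47 ± 0.04 and TAP2 at -0.75 ± 0.13. The 3 RPE-1 comparisons share libraries. A fit of all 32 libraries called 5 of the 9 in p53 KO against WT. There log2(FPKM + 0.1) and log2(FPKM + 1) moved the median of all genes by 0.36 and 0.20, with 77.9% and 78.2% of calls higher by limma, in place of 51.2%. Against WT cGAS the first of these moved it by 0.14, and 61.3% and 61.7% of calls were higher on the 2 scales, in place of 49.2%.

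Of the pathway lists in RPE-1, 5 of 6 immunoproteasome genes rose and 0 fell in WT cGAS, where 29.8% of all genes were higher and 30.0% lower, with PSMB9 at 41.2 ± 4.06 CPM in WT cGAS against 4.65 ± 0.731 CPM in WT (3.16 ± 0.12). In p53 KO 5 of 6 rose and 0 fell, where 34.2% of all genes were higher and 32.5% lower. Of the loading chaperones and trimming enzymes 4 of 8 rose and 2 fell in WT cGAS, with ERAP2 (2.41 ± 0.11) and TAPBPL (1.93 ± 0.14) higher and SEC61A1, a channel of the endoplasmic reticulum, lower (-0.38 ± 0.04), and 2 rose and 3 fell in p53 KO. Of the regulators 10 of 14 rose and 2 fell in WT cGAS, led by IRF1 (1.61 ± 0.06), and 9 rose and 2 fell in p53 KO. Interferon receptors and kinases rose in 5 of 7 and fell in 1 in WT cGAS, and rose in 1 and fell in 6 in p53 KO. Of 4 class I-like genes 2 rose and 2 fell in WT cGAS, and 1 rose and 3 fell in p53 KO. IFIT1 had 391 and 384 CPM in p53 KO, 1455 and 1209 CPM in WT cGAS and 49.3 and 62.5 CPM in WT.

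Over the 32 libraries, each set against the mean of its part, the 36 pairs of the 9 genes had Pearson correlations of log2 CPM between 0.08 and 0.96 with a median of 0.71. HLA-F and B2M (0.96) and HLA-C and HLA-F (0.95) were the closest pairs, and TAP2 with TAPBP (0.08), TAP2 with NLRC5 (0.16) and HLA-B with TAP2 (0.21) the least close. Among 12927 other genes, those most like the mean of the 9 included HLA-H, a class I pseudogene (r = 0.931), BTN3A1, a butyrophilin read by gamma delta T cells (0.929), PSME1 (0.926) and PSME2 (0.924), the subunits of the proteasome activator, and GBP4, an interferon-induced GTPase (0.924). HCP5, a transcript of the class I region (0.915), and PSMB8 (0.913) followed. These values describe the same 32 libraries as the comparisons above, and reads of HLA-H can be shared with the heavy chain genes.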

How the data were processed

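Polyadenylated RNA was sequenced from 32 libraries in 16 groups. The deposited table of the authors holds expected counts per gene, of which 96.0% to 97.3% per library are whole numbers, and a second deposited table holds FPKM values. Per the submitters' processing notes the build was hg19 and the tools included STAR and Cuffnorm; versions and the use of strand in counting were not given.

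Counts were rounded to whole numbers. Each of the 3 parts was fitted separately with edgeR 4.0.16 in R 4.3.3: TMM factors, genes kept by the default low-count filter (15190, 16632 and 15469 genes), quasi-likelihood F tests over all groups of the part, and Benjamini-Hochberg adjustment over all genes tested, with a threshold of 0.05. A standard error is the absolute log2 fold change divided by the square root of F. CPM used TMM factors over all 32 libraries, and correlations used log2 CPM with a prior count of 2. With 2 libraries per group, no permutation test of a single value can pass 0.05, so none was run. Total counts of 5590061 to 18585999 set the precision. The code was tested on simulated data.

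The genes, pathway lists and comparisons were chosen with earlier results of these data known. The 3 comparisons of knockout lines with untreated cells, 1 motif search and the older edgeR quasi-likelihood method were added after values were seen. All 9 genes are described; of each pathway list, up to 2 called genes per comparison and direction with the largest log2 fold change could be named, and of the genes outside the 9 those with the highest correlation to their mean. Alternatives were other scaling factors, no filter, DESeq2 1.42.0, limma 3.58.1 on log2(FPKM + 0.1) and log2(FPKM + 1), a replicate block, only the groups compared, all libraries in one fit, and leaving out each library. Some genes of these lists and label checks are not reported here.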

Additional observations from a re-analysis of the deposited data

Results flagged for a closer look

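The effect of ATRi differed between the DKO and XRCC4 KO lines in 8 of the 9 genes by the interaction test of edgeR, which is what marked them for a closer look. The difference, DKO minus XRCC4 KO on the log2 scale, was 2.26 for NLRC5, 1.74 for TAP1, 1.54 for HLA-F, 1.21 for HLA-B, 1.17 for HLA-C, 0.76 for HLA-E, 0.55 for B2M and 0.48 for TAPBP. The knockout lines were grown from single cells with no clone named and had 2 libraries per group, so lines and genotypes cannot be told apart.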

How the results depend on the processing

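Of 2943 recomputed fold changes of the 9 genes, 2656 kept their side of the threshold with no called value turned round, 192 lost the threshold, 81 passed it and 14 called ones turned round. All 14 came from limma on the FPKM values, with the same value at either pseudocount. These were HLA-E (-0.11) and TAP2 (-0.22) in XRCC4 KO against WT at 3 days, HLA-C (0.07) and TAPBP (0.20) in the DKO against XRCC4 KO, TAP2 (0.52) in the DKO with ATRi against XRCC4 KO with ATRi, and TAP2 (0.23) and TAPBP (0.11) in the DKO with ATRi against WT. Of the 2656, 43 that were not called changed sign. The causes were not tested.

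Of 327 recomputed counts of called genes, 290 stayed within 1.5 times the reported one. Fitting only the groups compared, which leaves few residual degrees of freedom, called 0 at 5 days against untreated, 0 with CDK1i against DMSO, 0 with CDK1i against untreated, 3 in cGAS KO, 3 in STING KO and 4 in XRCC4 KO against WT at 5 days. Limma called 4 with either pseudocount at 5 days against untreated, 1 with either pseudocount with CDK1i against untreated, and 3 in p53 KO against WT with a pseudocount of 1. Without the low-count filter 1 was called with CDK1i against untreated and 4 in cGAS KO against WT. DESeq2 called 7 at 5 against 3 days and 5 in STING KO against untreated. All 32 libraries in one fit called 8 at 5 against 3 days, 2 in p53 KO and 5 in XRCC4 KO against WT at 3 days, 0 in XRCC4 KO with against without ATRi, 3 in the DKO against XRCC4 KO, 4 in the DKO against p53 KO, 4 for the difference of ATRi effects, 5 in RPE-1 p53 KO against WT and 5 in STING KO against untreated.

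With the replicate block 3 were called at 5 against 3 days and 4 in STING KO against untreated; other counts stayed within 1.5 times. Same-numbered libraries deviated together among the WT groups of the first part (correlations of 0.202 to 0.409) and not elsewhere (-0.112 to 0.0456), and the labels do not say that a number is shared. With the STING KO numbers crossed, a fit added after the data were seen, 3 were called against untreated.

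Leaving out 1 library gave 0 to 0 calls at 3 days against untreated, 3 to 8 at 5 days against untreated, 0 to 7 at 5 against 3 days, 3 to 9 with CDK1i against DMSO and 1 to 4 with CDK1i against untreated. Against WT at 5 days it gave 1 to 8 in cGAS KO, 4 to 8 in STING KO and 5 to 8 in XRCC4 KO, and against untreated 2 to 4, 2 to 4 and 3 to 5 in those lines. In the second part it gave 6 to 6 in p53 KO and 7 to 8 in XRCC4 KO against WT, 5 to 7 for ATRi in XRCC4 KO, 7 to 8 in the DKO against XRCC4 KO, 8 to 8 in the DKO against p53 KO, 8 to 8 for ATRi in the DKO, 9 to 9 and 8 to 9 in the DKO with ATRi against XRCC4 KO with ATRi and against WT, and 8 to 8 for the difference. In RPE-1 it gave 9 to 9 in WT cGAS and 7 to 8 in p53 KO against WT, and 8 to 9 in p53 KO against WT cGAS. A lone library left in a group is assumed to vary like the others.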
